A study of Oryza sativa Japonica Group and Oryza sativa Indica Group with 16 samples.

Results

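Plants move potassium and sodium across their membranes through a small set of transporter and channel families, and the members of these families that an array of rice flag leaves could measure were followed through a drought. The genes were taken by name: a probe set was a member when the annotation gives it 1 gene whose symbol or synonym is HAK, HKT, AKT, KAT, TPK or NHX with a number, or SOS1. This found 26 of the 17905 genes that the annotation pairs with a probe set of their own, measured by 33 of the 57381 probe sets of the array, namely 29 probe sets of 22 HAK genes, AKT1, HKT1;5, TPK2 and TPK3. No NHX, KAT or SOS1 gene was matched by name, and 10 of the 36 family genes in the gene table had no probe set of 1 gene, 6 of them HKT genes.

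The study compared IRAT109, a drought-resistant japonica cultivar grown as upland rice, with Zhenshan 97 (ZS97), a drought-sensitive indica cultivar grown as paddy rice. Samples came from the middle section of flag leaf blades, in the reproductive stage before flowering. They were taken without stress (D0) and at 3 rising degrees of drought (D1, D2 and D3). By the time of sampling the relative water content of the leaves had gone from 94% to 95% without stress down to 83% to 88%, 74% to 78% and 65% to 69%. Each of the 8 groups had 2 biological replicates, 1 array each. Each genotype is 1 cultivar, so a difference between the genotypes is a difference between these cultivars.

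HAK transporters carry potassium, many of them by high-affinity uptake together with protons, and AKT channels let potassium into the cell when the membrane is strongly polarized. HKT proteins carry sodium, or sodium together with potassium, and those of the first HKT class withdraw sodium from the xylem and keep it out of leaf blades. Potassium is also the main ion with which leaf cells set their turgor and guard cells open and close the stomata, while in roots the HAK1, HAK5 and AKT1 proteins are the known routes of potassium uptake.

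Signals are given as deposited intensity on a linear scale. A change is a difference of log2(intensity + 16), with its standard error (SE), and was called where limma's adjusted p was under 0.05 and the fold over 2. The words rose and fell are used only of such calls. The correlation of the log2 values of replicate arrays was 0.9971 to 0.9983 over all probe sets, and the median change of all probe sets lay between -0.0354 and 0.0209 in every comparison. Of the leaf markers, 1 RBCS probe set and both CAB2R probe sets carried most of the signal at D0, at 11533 to 21803, while another RBCS probe set read only 21.4 to 26.2. The summed intensity of the 8 leaf probe sets went from 58954 and 59992 at D0 to 28620 and 29658 at D3 in IRAT109, and from 53348 and 55204 to 20137 and 20288 in ZS97. PORB did not follow the sum at D1, with 2928 and 3035 at D0 and 4448 and 4433 at D1 in ZS97, a difference under 2-fold. The drought markers of the RAB and salT genes summed to between 187 and 354 on the D0 arrays and between 64813 and 67171 on the D3 arrays, most of it from RAB21 and RAB16B. The brighter salT probe set read 160 and 168 at D0, 109 and 97.6 at D1 and 293 and 416 at D3 in IRAT109, against 29.3 and 54.4, 263 and 229 and 5921 and 5674 in ZS97. Of the 4 root markers only LSI1 was measured, and it read between 111.6 and 405 over the 16 arrays. In a section of leaf blade, fewer cells of a type and less RNA per cell cannot be told apart.

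Almost all member calls under drought at a fold over 2 were falls, while a fold over 1.5 added rises in both genotypes. In IRAT109, 9 of the 33 probe sets (27.3%), of 7 genes, fell at 1 or more stages and 0 rose, where 5.4% of all probe sets on the array fell and 4.22% rose. In ZS97, 11 of the 33 (33.3%), of 9 genes, fell and 1 rose (3.03%), where 4.61% of all probe sets fell and 4.7% rose. The fall was called at every stage for all 9 probe sets in IRAT109 (3.03% of all probe sets) and for 6 of the 11 in ZS97 (2.63% of all probe sets), although the stages of a genotype share their D0 arrays. The shares over all probe sets include many dim ones, as 27.9% to 29.5% of them read under 16 on an array. There the constant of 16 leaves almost no room for a fall over 2-fold. Of the 33 members, 4 read under 16 on every array. The share that fell among brighter probe sets was not counted. In both genotypes 8 probe sets fell, which is 8 of the 9 in IRAT109 and 8 of the 11 in ZS97. They belong to 6 genes, AKT1, HAK1, HAK13, HAK17, HAK27 and TPK3. The share of all probe sets that fell in both genotypes was not counted, so this overlap is not read as particular to the members. The median change of the 33 members was small, between -0.12 and -0.06 over the stages of IRAT109 and between -0.26 and -0.15 in ZS97, and 20 probe sets were called at no stage in either genotype. The log2 changes of these 20 lay between -0.68 and 0.92. By the shares above most of the array was uncalled as well, so the 20 are not read as unusually stable.

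**Figure D1:**
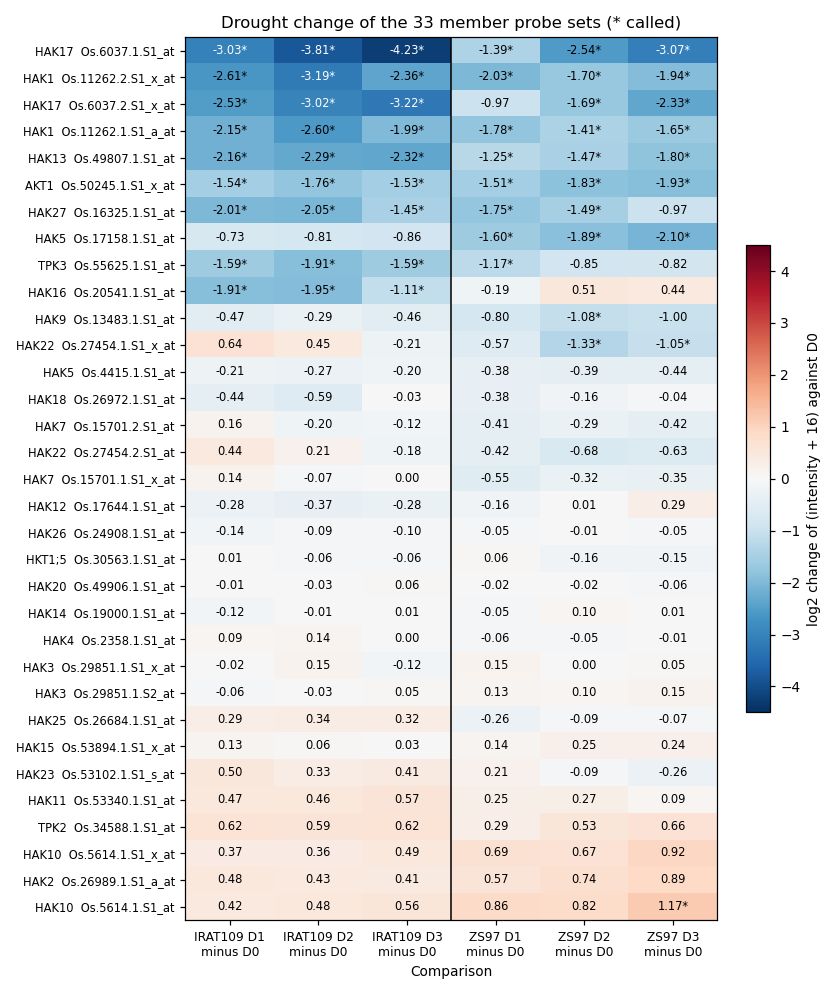
Each row is 1 of the 33 member probe sets and each column a drought stage against D0 in IRAT109 or ZS97; colour and number give the change of log2(intensity + 16), and a star marks a call (adjusted p under 0.05 and fold over 2). The rows at the top, HAK17, HAK1 and HAK13, were lower in both genotypes, and HAK10 carries the only star on a rise.

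Among the genes known for potassium uptake, HAK1 and AKT1 fell in both genotypes at every stage. HAK1 is a high-affinity transporter that roots use when potassium is scarce. The gene (LOC4335729) has 2 probe sets, which are named here by the ending of their identifiers. The _x_at probe set read 875 and 965 at D0 in IRAT109, 154 and 122 at D1, 85.4 and 87.2 at D2 and 162 and 169 at D3. In ZS97 it read 576 and 549 at D0 and then 132 and 118, 168 and 156 and 139.6 and 129.7. Every drought array lay far below the D0 arrays of its genotype, and the lowest pair was that of IRAT109 at D2. The log2 changes were -2.61 ± 0.092, -3.19 ± 0.092 and -2.36 ± 0.092 (SE) in IRAT109, with a highest adjusted p of 2.77e-10 by limma, and -2.03 ± 0.092, -1.70 ± 0.092 and -1.94 ± 0.092 in ZS97, with a highest adjusted p of 8.19e-09. The _a_at probe set of HAK1 fell as well, with changes of -2.15, -2.60 and -1.99 in IRAT109 and -1.78, -1.41 and -1.65 in ZS97.

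AKT1 (LOC4326245) is an inward-rectifying potassium channel of the Shaker type. In IRAT109 its probe set read 849.6 and 866 at D0, 301 and 267 at D1, 235 and 248 at D2 and 281 and 292 at D3. In ZS97 the readings were 772 and 728, 246 and 258, 199 and 198 and 202 and 169. No drought array reached the lowest D0 array. The log2 changes were -1.54 ± 0.078, -1.76 ± 0.078 and -1.53 ± 0.078 in IRAT109. Those of ZS97 were -1.51 ± 0.078, -1.83 ± 0.078 and -1.93 ± 0.078 (adjusted p in either genotype at most 7.02e-09, limma). The change in IRAT109 minus that in ZS97 was -0.03 at D1 (95% interval -0.27 to 0.21), 0.07 at D2 (-0.17 to 0.31) and 0.40 at D3 (0.16 to 0.64), so the D3 fall was the smaller in IRAT109, by less than 2-fold (adjusted p = 0.021). The single root marker was also lower, though uncalled: LSI1, a silicon channel of roots, changed by -0.45, -0.94 and -0.89 in IRAT109 and by -0.99, -0.80 and -0.99 in ZS97. Its part in the falls of HAK1 and AKT1 was not tested.

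HAK5 (LOC4326945), the other known high-affinity uptake transporter, had 2 probe sets that differed. The dim one read 162 and 138 at D0 in ZS97 and then 41.5 and 36.1, 25.8 and 32.2 and 22.5 and 22.8, a fall with log2 changes of -1.60 ± 0.10, -1.89 ± 0.10 and -2.10 ± 0.10 (adjusted p at most 7.2e-08, limma). In IRAT109 it read only 42.5 and 33.4 at D0, and 15.7 and 17.3, 16.8 and 12.8 and 12.3 and 14.9 under drought, with changes of -0.73, -0.81 and -0.86 that stayed under 2-fold. All 6 drought arrays of IRAT109 lay below both its D0 arrays, and near the constant of 16, which limits how far a log2 value can go down. The bright HAK5 probe set ranged from 7028 to 9703 over the 16 arrays. It was lower under drought by less than 2-fold, with changes from -0.44 in ZS97 at D3 to -0.20 in IRAT109 at D3.

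The member with the deepest fall was HAK17 (LOC4347211), a HAK transporter placed in the family by its sequence. Its _at probe set read 2231 and 2186 at D0 in IRAT109, 259.7 and 254 at D1, 159.6 and 127 at D2 and 108 and 97.1 at D3. In ZS97 it read 849 and 739, then 325 and 261, 129.5 and 118 and 80.4 and 79.7. The readings went down at each degree of drought in both genotypes, with no overlap between D0 and any drought stage. The log2 changes were -3.03 ± 0.11, -3.81 ± 0.11 and -4.23 ± 0.11 in IRAT109 (adjusted p at most 2.24e-10, limma) and -1.39 ± 0.11, -2.54 ± 0.11 and -3.07 ± 0.11 in ZS97 (at most 4.26e-07). Its _x_at probe set started from 730.3 and 733 in IRAT109 and 349.7 and 318 in ZS97 and reached 64.7 and 63.8 and 54.8 and 52.7 at D3. Its changes were -2.53, -3.02 and -3.22, against -0.97, -1.69 and -2.33 in ZS97, where the D1 change was just short of 2-fold.

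HAK13 (LOC4341805) also fell at each stage in both genotypes, but its D0 arrays differed in ZS97. It read 238 and 202 at D0 in IRAT109 and 41.6 and 32.0, 33.8 and 30.4 and 28.8 and 33.3 under drought, changes of -2.16 ± 0.20, -2.29 ± 0.20 and -2.32 ± 0.20 (adjusted p at most 1.9e-06, limma). In ZS97 the D0 arrays gave 93.7 and 182, the drought arrays 48.9 and 43.0, 33.4 and 41.4 and 28.4 and 24.4, and the changes were -1.25 ± 0.20, -1.47 ± 0.20 and -1.80 ± 0.20 (at most 0.000303). Both ZS97 D0 arrays lay above every drought array. Without the higher of them, replicate 2, the D1 change was -0.83 and no longer called.

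HAK27 (LOC4333296) and HAK16 (LOC4333298) lie next to each other in the gene annotation with no protein-coding gene between them. HAK27 read 387 and 380.4 at D0 in IRAT109 and 78.9 and 87.6, 89.5 and 72.2 and 134 and 127 at D1, D2 and D3. In ZS97 it read 736 and 646, 190.0 and 197, 225 and 245 and 331 and 357. The readings were lowest at D1 or D2 and higher again at D3 in both genotypes, without returning to D0. The log2 changes were -2.01 ± 0.089, -2.05 ± 0.089 and -1.45 ± 0.089 in IRAT109. In ZS97 they were -1.75 ± 0.089, -1.49 ± 0.089 and -0.97 ± 0.089, the last just under 2-fold (adjusted p at most 1.25e-06, limma).

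HAK16, a transporter known in rice for potassium uptake and its passage to the shoot, was called in IRAT109 and not in ZS97. It read 1691 and 1575 at D0 in IRAT109, 443 and 401 at D1, 414 and 408 at D2 and 775 and 726 at D3. In ZS97 it read 614 and 610.3 at D0, 510.0 and 559.8 at D1, 826 and 935 at D2 and 839 and 829 at D3. The IRAT109 arrays went down from D0 and came part of the way back at D3, whereas the ZS97 arrays at D2 and D3 were above those at D0. The changes were -1.91 ± 0.074, -1.95 ± 0.074 and -1.11 ± 0.074 in IRAT109 (adjusted p at most 5.53e-08, limma), and -0.19 ± 0.074, 0.51 ± 0.074 and 0.44 ± 0.074 in ZS97, none of them past 2-fold.

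**Figure D2:**
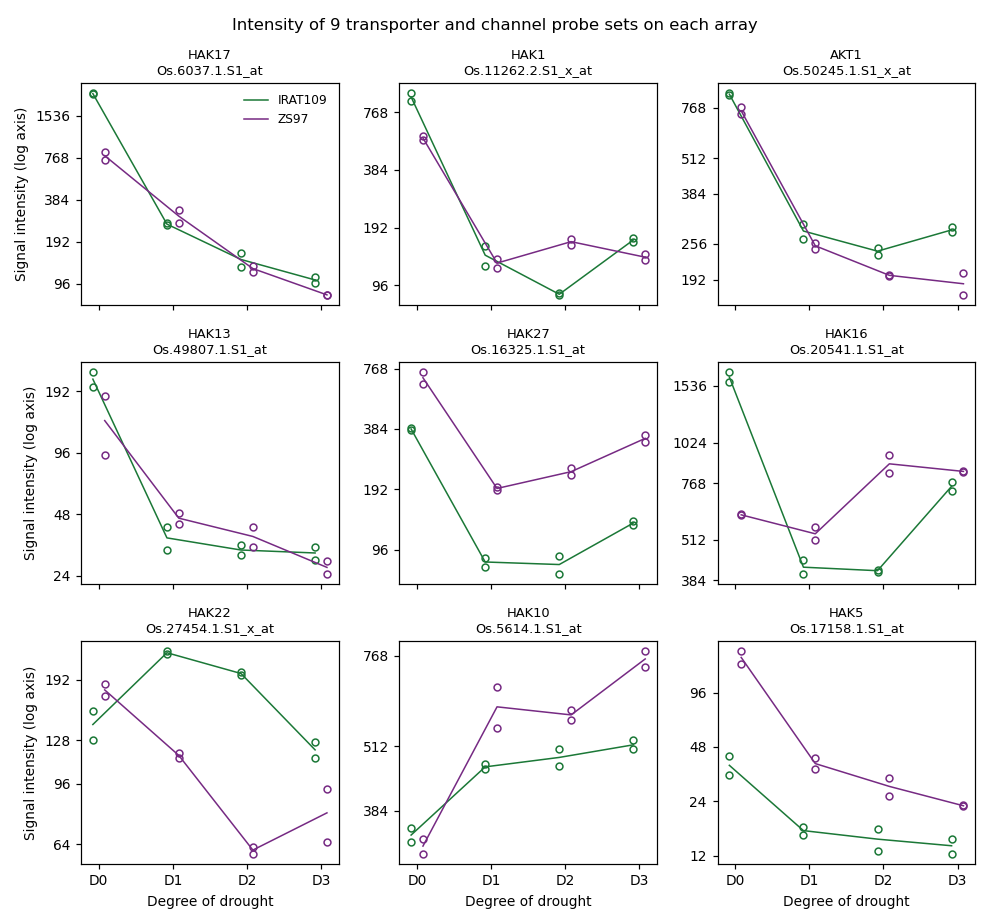
Signal intensity (log axis) of 9 member probe sets on each array at D0 to D3; circles are single arrays, lines join the means of the 2 arrays of a group, green for IRAT109 and purple for ZS97. HAK17 started at 2231 and 2186 in IRAT109 and at 849 and 739 in ZS97 and came close together under drought, while the HAK16 and HAK22 lines crossed.

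HAK22, HAK9 and HAK10 were called in ZS97 and not in IRAT109. The _x_at probe set of HAK22 (LOC4342173) read 172 and 186 at D0 in ZS97 and 118 and 114, 63.1 and 60.2 and 92.9 and 65.1 under drought, with changes of -0.57 ± 0.12, -1.33 ± 0.12 and -1.05 ± 0.12 (adjusted p = 8.46e-07 at D2 and 6.71e-06 at D3, limma). In IRAT109 it read 156 and 129, 232 and 228, 198 and 202 and 114 and 127, with changes of 0.64, 0.45 and -0.21. The IRAT109 arrays at D1 and D2 lay above those at D0, and the ZS97 arrays at every drought stage below. Without the second ZS97 D3 array the ZS97 change at D3 was -0.84 and not called.

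HAK9 (LOC4344288) read 165 and 182 at D0 and 75.5 and 71.2 at D2 in ZS97, where it fell, with a change of -1.08 ± 0.063 (adjusted p = 1.59e-08, limma). Its change at D1 in ZS97 was -0.80, that at D3 missed 2-fold narrowly, and in IRAT109 the changes were -0.47, -0.29 and -0.46. HAK10 (LOC4341573), a transporter known from the vacuolar membrane, was the only member that rose. Its _at probe set read 338 and 317 at D0 and 783 and 732 at D3 in ZS97, a rise of 1.17 ± 0.081 (adjusted p = 7.32e-08, limma). The values at D1 and D2 were 0.86 and 0.82 in ZS97, and the IRAT109 arrays went from 355 and 333 at D0 to 526 and 505 at D3, a change of 0.56. Its _x_at probe set gave 0.92 in ZS97 at D3, under 2-fold. The differences between the genotypes, 0.79 for HAK9 at D2 and -0.61 for HAK10 at D3, did not pass 2-fold.

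Of the other HAK genes, HAK2 had the nearest values to a call, with changes of 0.48, 0.43 and 0.41 in IRAT109 and 0.57, 0.74 and 0.89 in ZS97. HAK25 ranged from 1134 to 2087 over the 16 arrays and HAK18 from 526 to 1198, and neither changed by 2-fold in any drought comparison. HAK3, HAK4, HAK7, HAK11, HAK12, HAK14, HAK15, HAK20, HAK23 and HAK26 were not called either. HAK4, HAK20, HAK26 and 1 of the HAK3 probe sets read under 16 on every array, where the constant of 16 hides small changes. HAK26, with 5.0 to 8.2, was the dimmest of the HAK probe sets and the bright HAK5 probe set the brightest, although probes differ in how strongly they bind, so this is no order of transcript levels.

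HKT1;5 (LOC4327757), which withdraws sodium from the xylem sap, stayed dim. It read between 19.6 and 29.1 on the 16 arrays with overlapping groups, and its changes lay between -0.16 (95% interval -0.39 to 0.07) and 0.06 (-0.17 to 0.29). HKT1;1, a sodium transporter of the same class, is not a member because the annotation pairs no probe set with it, and its probe set is named only in the supplement of the study. The list there holds genes that the study called drought-responsive in IRAT109 or in ZS97, but not in both, on these same arrays. A response that differed between the genotypes was thus a ground of its listing, and the values below are no independent support for it. The HKT1;1 probe set read 52.3 and 50.0 at D0 in ZS97, then 151 and 136, 239 and 270.1 and 155 and 162, and rose by 1.24 ± 0.089, 2.01 ± 0.089 and 1.38 ± 0.089 (adjusted p at most 1.66e-07, limma). In IRAT109 it read between 21.8 and 36.9 on all 8 arrays and was not called, with changes of 0.30, 0.13 and 0.12. The difference between the genotypes was called at D2 (-1.88 ± 0.13) and D3 (-1.26 ± 0.13). The IRAT109 readings lie near the constant of 16, which makes changes look smaller. Whether the probes bind the IRAT109 transcript less well was not tested.

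The symbol TPK is shared by tandem-pore potassium channels and by thiamine pyrophosphokinases, and the annotation does not settle which of these TPK2 and TPK3 are. TPK3 (LOC4338566) read 337 and 366 at D0 in IRAT109 and 112 and 100.4, 84.4 and 79.2 and 102 and 110.3 under drought. In ZS97 it read 181 and 187, 73.3 and 72.9, 94.3 and 96.5 and 105 and 90.9. It fell in IRAT109 with changes of -1.59 ± 0.072, -1.91 ± 0.072 and -1.59 ± 0.072, and in ZS97 at D1 with -1.17 ± 0.072, whereas -0.85 and -0.82 at D2 and D3 were under 2-fold (adjusted p at most 8.34e-07, limma). TPK2 was higher under drought by 0.29 to 0.66, less than 2-fold. Without both TPK genes, 8 probe sets fell in IRAT109 and 10 in ZS97.

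Few steps between neighbouring drought stages were called, on the whole array as among the members. Between D1 and D2 and between D2 and D3, 1 member probe set (3.03%) was called in either genotype, where 1.38% of all probe sets were. It was HAK17 in ZS97, whose _at probe set fell from D1 to D2 with a change of -1.14 ± 0.11 (adjusted p = 2.15e-05, limma). Without the first ZS97 D1 array the change was -0.99 and not called. In IRAT109, some members that had fallen were higher at D3 than at D2, by less than 2-fold. The differences were 0.84 ± 0.074 for HAK16 (adjusted p = 1.06e-05, limma), 0.83 ± 0.092 and 0.61 ± 0.098 for the HAK1 probe sets and 0.60 ± 0.089 for HAK27, and HAK18, which was not called, gave 0.55 ± 0.075.

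The drought changes of 8 member probe sets, of 6 genes, differed between the genotypes at 1 or more stages, where 5.53% of all probe sets did. At D2 all 8 were called, where 4.2% of all probe sets were. HAK16 had the largest difference of the members, with -1.72 ± 0.10 at D1, -2.46 ± 0.10 at D2 and -1.54 ± 0.10 at D3 (IRAT109 change minus ZS97 change; adjusted p at most 5.72e-07, limma). HAK17 fell further in IRAT109, with -1.63 ± 0.15, -1.27 ± 0.15 and -1.16 ± 0.15 for the _at probe set (adjusted p at most 0.000178, limma) and -1.56, -1.33 and -0.89 for the _x_at probe set, the last under 2-fold. Both HAK1 probe sets differed at D2, by -1.19 ± 0.14 and -1.49 ± 0.13, and TPK3 by -1.06 ± 0.10.

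The opposite sign, a more negative change in ZS97, was seen for HAK22 and the dim HAK5 probe set. HAK22 differed by 1.20 ± 0.16 at D1 (adjusted p = 0.000236, limma) and 1.78 ± 0.16 at D2 (5.61e-06). HAK5 differed by 1.08 ± 0.15 at D2 and 1.24 ± 0.15 at D3, but its IRAT109 readings lie near the constant of 16, and without any 1 of 4 single arrays the D2 difference was 0.96 to 0.99 and not called. For AKT1, HAK13 and HAK27, which fell in both genotypes, no difference was called, and the HAK13 differences had wide intervals, such as -1.53 to -0.29 around -0.91 at D1.

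**Figure D3:**
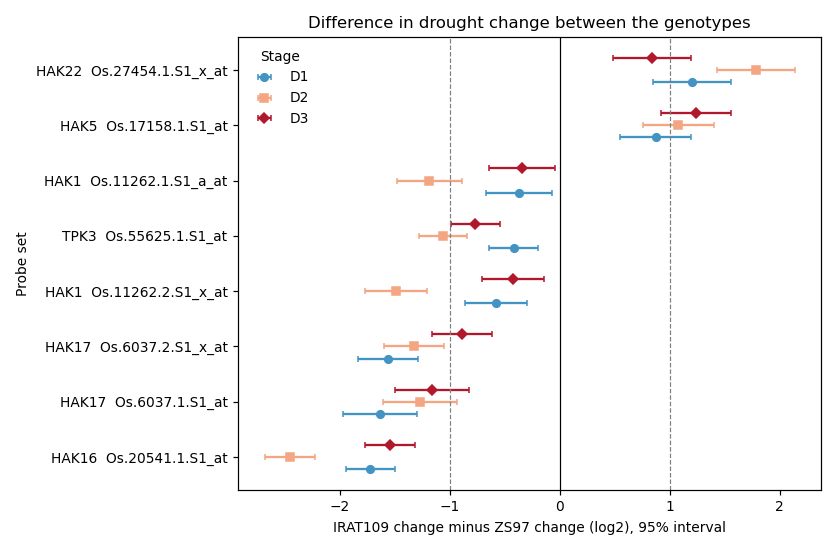
IRAT109 change minus ZS97 change (log2) with its 95% interval for the 8 member probe sets called at 1 or more stages; circles are D1, squares D2 and diamonds D3, and dashed lines mark 2-fold. HAK16, HAK17, HAK1 and TPK3 lie to the left, where the change is more negative in IRAT109, and HAK5 and HAK22 to the right; the axis compares changes, not levels.

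The unstressed levels of some of these probe sets differed too, and both kinds of test use the D0 arrays. At D0, 4 member probe sets were called between the genotypes, where 4.87% of all probe sets were. HAK16 was higher in IRAT109, with a log2 difference of IRAT109 minus ZS97 of 1.39 ± 0.074 (adjusted p = 1.1e-08, limma). HAK17 was also higher, with 1.46 ± 0.11 and 1.10 ± 0.089 for its 2 probe sets, and the dim HAK5 probe set was lower, with -1.63 ± 0.10. Under drought the HAK17 _at probe set differed by -0.17, 0.19 and 0.30 between the genotypes, none of them called. HAK16 was lower in IRAT109 at D2, with a difference of -1.07 ± 0.074 (adjusted p = 1.11e-07, limma), which was -0.98 and not called without the second ZS97 D2 array. HAK22 was higher in IRAT109 at D2, by 1.48 ± 0.12. HAK27 was lower in IRAT109 at every stage, with differences of -0.82 at D0, under 2-fold, and -1.08 ± 0.089, -1.38 ± 0.089 and -1.30 ± 0.089 at D1, D2 and D3, and was the only member called at D1 and at D3. At D1, D2 and D3, 5.53%, 6.65% and 5.6% of all probe sets were called between the genotypes. Where the cultivars differ in sequence at a probe, a weaker signal and a lower transcript level cannot be told apart.

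Of the 26 genes, 7 had 2 probe sets. Over the 8 group means, taken as log2(mean + 16), the pairs correlated at 0.999 for HAK1, 0.993 for HAK17, 0.992 for HAK10, 0.981 for HAK22 and 0.886 for HAK7 (Pearson, a description, as both probe sets share the arrays). They correlated at only 0.578 for HAK5 and 0.075 for HAK3, where 1 probe set read under 16 on every array. The _at probe set of HAK22 read between 17.0 and 49.6 and was not called, with -0.68 at D2 in ZS97 against -1.33 for the brighter one. Of the 33 members, 8 probe sets carry the ending _x_at and 1 the ending _s_at, which mark probe sets where some or all probes may also bind other transcripts. Among these are the only AKT1 probe set and 1 each of HAK1, HAK17 and HAK22.

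**Figure D4:**
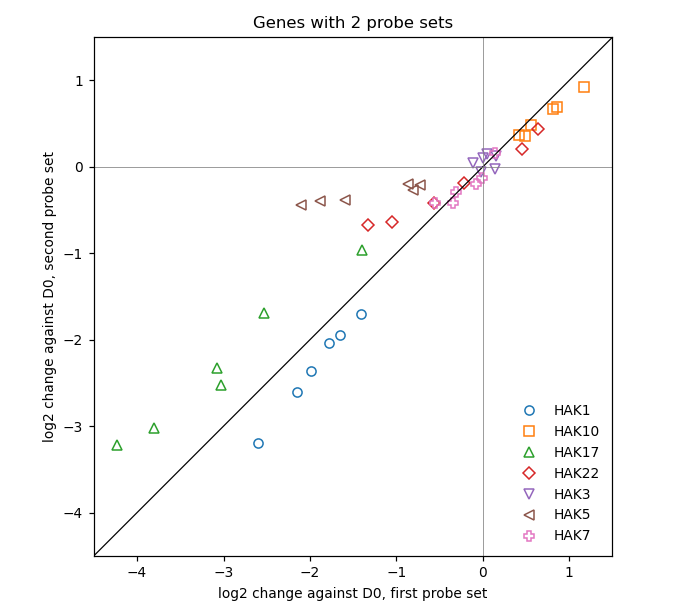
Log2 changes against D0 of the 7 genes with 2 probe sets, the first probe set on the x axis and the second on the y axis, 6 points per gene for the 3 drought stages of both genotypes. HAK1 and HAK17 run from -0.97 to -4.23 along the line of equal change, HAK17 with the smaller changes on its second probe set, while HAK5 spreads along the x axis with little change on the y axis.

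Likeness of pattern was described by the Pearson correlation of log2(group mean + 16) over the 8 groups, which share drought as a common course. AKT1 was most like HAK13 (0.96), the bright HAK5 probe set (0.959) and HAK1 (0.938). HAK17 was most like HAK13, at 0.968 and 0.977 for its 2 probe sets, and TPK3 most like HAK1, at 0.964 and 0.962. HAK16 had no close match, its nearest being HAK12 and HAK26 at 0.734, the latter under 16 on every array. HAK27 was nearest to HAK18 (0.857), not to its neighbour HAK16.

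Other genes of potassium and sodium handling, 9 probe sets of 7 genes, were mostly uncalled under drought. The list was KCO1, KCO2, TPC1, CBL4, CBL10, CIPK23 and CIPK24, of which 1 probe set rose at 1 or more stages in IRAT109 and 2 in ZS97, and 0 fell. Over all probe sets 4.22% and 4.7% rose and 5.4% and 4.61% fell, and with only 9 probe sets these counts are not read as a direction of the list. The medians of the list were 0.27, 0.23 and 0.56 in IRAT109 and 0.45, 0.44 and 0.28 in ZS97. KCO2 (LOC4342213), a tandem-pore potassium channel of vacuoles also named TPKb, rose throughout. It read 52.0 and 55.3 at D0 in IRAT109 and 302 and 280.5, 385 and 332 and 396 and 529 under drought, and in ZS97 26.6 and 25.1 and then 422 and 363, 433 and 413 and 602 and 604. All drought arrays lay above all D0 arrays, with rises of 2.14 ± 0.11, 2.42 ± 0.11 and 2.77 ± 0.11 in IRAT109. The rises in ZS97 were 3.28 ± 0.11, 3.39 ± 0.11 and 3.89 ± 0.11 (adjusted p in either genotype at most 8.5e-09, limma). The difference between the genotypes was called at D1 (-1.14) and D3 (-1.12). KCO1, the related channel TPKa, had changes from 0.45 to 0.89, under 2-fold.

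CBL10, a calcium sensor, read 314 and 283 at D0 and 710.0 and 752 at D2 in ZS97, a rise of 1.25 ± 0.11 (adjusted p = 1.07e-06, limma), while in IRAT109 it read 201 and 185 and 193 and 144 (-0.19), and the difference of -1.44 ± 0.16 at D2 was called. CIPK23 is the protein kinase that activates AKT1. The probe set with the larger difference read 641 and 581 at D0 and 923 and 955 at D3 in IRAT109, and 471 and 516 and 260.4 and 269.9 in ZS97. Neither change passed 2-fold (0.61 and -0.86), but they went opposite ways and differed by 1.47 ± 0.12 (adjusted p = 2.36e-06, limma). A second CIPK23 probe set gave 0.15 and -0.09 at D3. TPC1, a calcium-permeable cation channel, was not called under drought and was lower in IRAT109 at D0, with differences of -1.08 and -1.10 for its 2 probe sets.

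Some markers of other tissues moved with the stage as well. MADS1, a floral gene, read 397 to 440 at D0 in ZS97 and fell at all 3 stages there, with changes of -1.73, -1.34 and -1.72, and the other 3 floral markers read under 16 on the D0 arrays. In IRAT109 MADS1 read 88.3 and 97.7 at D0 and 39.1 and 36.5 at D1, where it fell by 1.02 on the log2 scale, and it was under 2-fold at D2 and D3. The 4 floral markers summed to between 113.5 and 123.9 at D0 in IRAT109 and between 62.8 and 84.7 under drought. The 4 seed probe sets summed to between 2598 and 2949 at D0 and between 1172 and 1175 at D3 in ZS97, and to between 1485 and 1515 and between 824.9 and 838.5 in IRAT109. GLB1 carried most of these sums, with 2161 and 2422 at D0 in ZS97. GLUA1 read 4.9 to 7.4 over all arrays, and the dimmer GLUA2 probe set was not called under drought. The brighter GLUA2 probe set fell at all 3 stages in IRAT109 and stayed under 2-fold in ZS97. The part of these markers in the falls of the potassium transporters was not tested.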

How the data were processed

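Gene expression was measured in flag leaves on 16 Affymetrix rice arrays, 2 biological replicates in each of 8 groups, taken from the labels. Each array has a linear signal intensity for every probe set, which the authors deposited and which was used as given. Both MAS5 (sample labels, version not stated) and the robust multiarray average (methods of the study) are named for the step from probes to probe sets, and which made the values was not settled. The trimmed mean intensity of an array was 228.6 to 246.

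The array annotation paired 22436 probe sets with exactly 1 gene, and only these were named. Another 95 have more than 1 gene and 34850 have no gene. The members, the lists and the comparisons were chosen with earlier results of these data known. Values were tested as log2(intensity + 16) by limma (version 3.58.1, R 4.3.3). A single model of 8 group means had 8 residual and 4.28 prior degrees of freedom, and p-values were adjusted by Benjamini-Hochberg over all 57381 probe sets. The median residual SD was 0.0827, and the number of arrays limits the precision. Calls needed an adjusted p under 0.05 and a fold over 2. The model was tested on simulated data.

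Members were named where called in a drought comparison (at most 12 per genotype), between the genotypes' changes or at D0 (at most 8 each), or where brightest or dimmest in a family. HKT1;1 was named from the supplement of the study, from a list that the study drew from these same arrays, and of non-members up to 6 called ion transport genes. For described members, the 3 most alike were taken. Alternatives were other constants, normalizations, filters, thresholds and models, and leaving out each array; leaving out the TPK genes was chosen after seeing the data.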

Additional observations from a re-analysis of the deposited data

Results flagged for a closer look

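The drought changes of the following probe sets differed between IRAT109 and ZS97 by the interaction test of limma (adjusted p under 0.05 and fold over 2). Values are the IRAT109 change minus the ZS97 change on the log2 scale, and the causes were not tested. HAK16 gave -1.72 at D1, -2.46 at D2 and -1.54 at D3. HAK17 gave -1.63, -1.27 and -1.16 for its _at probe set at the same stages, and -1.56 at D1 and -1.33 at D2 for its _x_at probe set. HAK1 gave -1.19 and -1.49 for its 2 probe sets at D2, and TPK3 gave -1.06 at D2. HAK22 gave 1.20 at D1 and 1.78 at D2, and the dim HAK5 probe set gave 1.08 at D2 and 1.24 at D3. Outside the members, KCO2 gave -1.14 at D1 and -1.12 at D3, CBL10 gave -1.44 at D2, CIPK23 gave 1.47 at D3 and HKT1;1 gave -1.88 at D2 and -1.26 at D3. The HKT1;1 probe set came from a list that the study drew from these same arrays for such differences, so its values are no independent result. No group was large enough for a search for single outlying arrays.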

How the results depend on the processing

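The main counts were 9 member probe sets lower and 0 higher under drought in IRAT109, 11 lower and 1 higher in ZS97, 1 step between stages, 8 differences of change between the genotypes, 4 differences at D0 and 1 at D3. At a fold over 1.5 in place of 2, 11 were lower and 2 higher in IRAT109 (10.8% and 9.34% of all probe sets), 12 lower and 4 higher in ZS97 (8.48% and 10.6%), and there were 7 steps (5.09%), 13 differences of change (14.8%), 10 differences at D0 (10.1%) and 2 at D3 (12.5%). With a constant of 64 in place of 16, 9 were lower in IRAT109 and 8 in ZS97, and there were 0 steps and 5 differences of change. With 1 probe set per gene there were 5 differences of change and 2 at D0. Leaving out each array in turn gave 9 to 9 lower and 0 to 0 higher in IRAT109, 11 to 11 lower and 1 to 1 higher in ZS97, 0 to 1 steps (0 without replicate 1 of ZS97 at D1), 8 to 9 differences of change, 4 to 5 at D0 and 1 to 1 at D3.

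Of the 79 called member values none reversed sign under any alternative run. With a constant of 64, which weighs against dim probe sets, 15 dropped under 2-fold, among them HAK13 and TPK3 in ZS97 at D1, HAK9 in ZS97 at D2, HAK22 in ZS97 and both HAK5 differences. One of the 15, HAK16 between the genotypes at D2, also did so under quantile normalization (-0.95). Leaving out 1 array took 5 of the 79 under 2-fold. Replicate numbers showed no consistent pairing of the samples: the deviations of replicate 1 correlated at -0.32 to 0.16 between groups, with 1 of 28 pairs over 0.1. A batch numbered differently from group to group would not be seen this way. A replicate block gave the counts 9, 0, 11, 1, 1, 8, 4 and 1 in the order above and changed no call. With 2 arrays per group, small changes of dim probe sets could not be measured.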
